A study of Caenorhabditis elegans with 2 samples.

Results

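The genes described here are 9 genes of the luminal face and the ion and nutrient transport of the Caenorhabditis elegans intestine: act-5, erm-1, eps-8, ifb-2, ifc-2, pept-1, nhx-2, pbo-4 and pgp-1. They were named as a list, and all 9 matched by symbol among the 19973 protein-coding genes of the Ensembl WBcel235 annotation. A region was counted at a gene when its summit lay in the gene body or in the 5000 bp upstream of the annotated 5' end. The material was chromatin of whole worms of strain RAF1713, young adults of mixed sex at 73 h, grown from L1 larvae starved after bleaching. The strain carries the single insertion rrrSi400 on chromosome II, in which the ets-4 promoter drives ETS-4 fused to GFP, followed by the ets-4 3' end and an unc-119(+) rescue marker, in an unc-119(ed3) background. GFP was immunoprecipitated in 2 biological replicates of this 1 group, and the deposited lists hold the enriched regions on build ce11. No condition was varied and no precipitate from untagged worms was analysed here, so the values describe enrichment within these worms. Whole worms were used, so no region can be assigned to intestinal cells from these data.

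The worm intestine is a tube of epithelial cells whose apical membrane faces the lumen and carries a dense brush border of microvilli. Actin bundles fill the microvilli, linker proteins tie the bundles to the membrane, and beneath them lies the endotube, a belt of intermediate filaments. Transporters in this membrane take up peptides and exchange sodium for protons, and the proton gradient across it powers peptide uptake and changes with each defecation cycle. ETS-4 is a transcription factor of the ETS family, whose members bind sequences around a GGA core, and it is known for roles in fat metabolism and ageing. GATA factors such as ELT-2, which bind sequences around GATA, are the main regulators of intestinal genes in the worm.

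The sequences under 4 regions of the authors' reproducible list upstream of these genes, 2 at promoters and 2 farther out, are shown because they let the ETS and GATA words be read beside the values that follow. Each is the reference sequence (RefSeq assembly WBcel235, the same as ce11) from 50 bp before to 50 bp after the deposited summit, on the forward strand, so the genes act-5 and nhx-2 read from right to left. Capitals mark 3 GATA words in either orientation, namely TGATAA, which was the most frequent of them at the 1102 summits described below, its variant AGATAA with another first base, and CTTATC, which reads GATAAG on the other strand. The 3 ETS words were CCGGAA, the form CCGGAT with another last base, and the shifted word ACCGGA, and they were searched in the same way and would be capitals too. The first and the last GATA word can overlap, as they do at nhx-2, and so can the shifted ETS word and the other 2.
act-5 (chrIII:13606261-13606361): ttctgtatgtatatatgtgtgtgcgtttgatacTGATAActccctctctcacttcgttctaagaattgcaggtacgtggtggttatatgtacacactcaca
ifb-2 (chrII:5748549-5748649): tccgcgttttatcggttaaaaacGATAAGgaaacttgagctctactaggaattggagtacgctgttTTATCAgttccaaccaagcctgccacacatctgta
nhx-2 (chrII:7695759-7695859): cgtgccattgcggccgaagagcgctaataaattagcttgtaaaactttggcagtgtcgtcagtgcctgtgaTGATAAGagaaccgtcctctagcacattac
pept-1 (chrX:6456718-6456818): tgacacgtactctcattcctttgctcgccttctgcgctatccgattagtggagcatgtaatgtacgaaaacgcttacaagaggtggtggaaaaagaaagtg

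A GATA word lay within 50 bp of 5 of the 7 summits for which words are reported, those at act-5, ifb-2, nhx-2 and pgp-1 and the stronger one at erm-1. Over all 1102 summits of the reproducible list, 32.4% had such a word within 50 bp. TGATAA was present at each of these 5, and 27.0% of all 1102 held it. At ifb-2 there were 2 separate words, 1 on each side of the summit, and at act-5 the word began 17 bp before the summit. The windows of pept-1 and the other erm-1 summit held none of the 3 GATA words. Over the whole regions, which include these windows, each of the 7 held a GATA word, as did 61.2% of the 1102. None of the 3 ETS words was found in any of the 7 windows, beside 6.62% of the 1102. Other sequences around a GGA core, such as those in the ifb-2 and pept-1 windows above, were not counted. At so low a share, none in 7 windows is near the background. The whole regions of these 7 held no ETS word either, beside 19.1% of the 1102. These matches describe letters in a window and show no factor at the site.

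**Figure D1:**
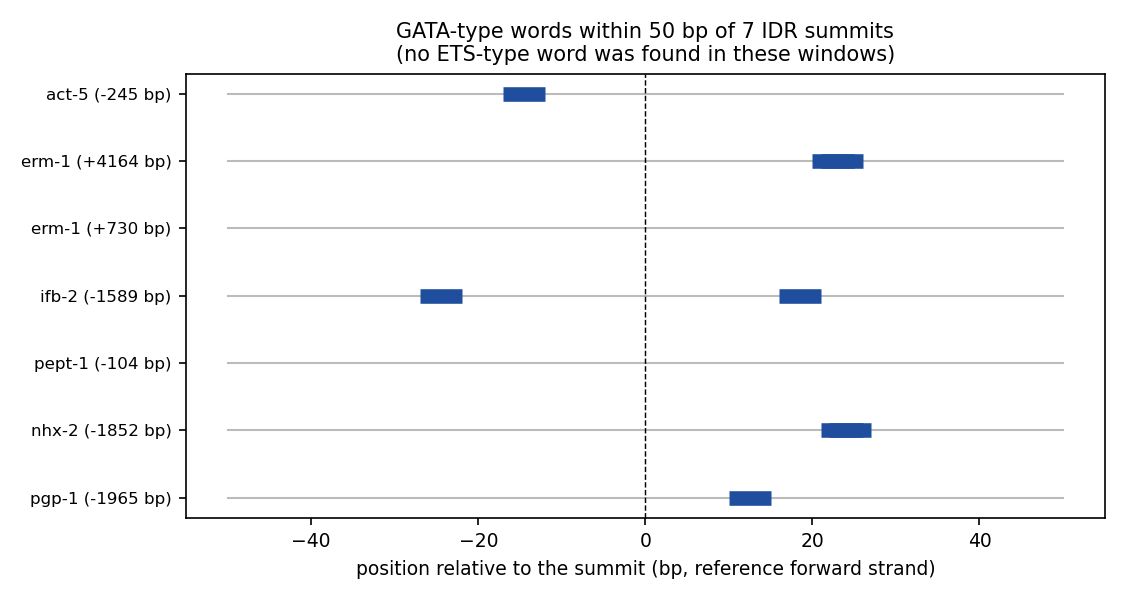
Positions of GATA-type words (blue blocks, both orientations) in the 50 bp to each side of 7 summits of the reproducible list at the listed genes. The horizontal axis is the distance from the summit in bp on the reference forward strand, and each line is 1 summit, named by its gene and its distance from the gene's 5' end; 5 of the 7 lines carry a block.

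Strong enrichment was found at 7 of the 9 genes. The lists of candidates hold 30000 regions per replicate and 30000 from both replicates pooled, each with a signal value given by the authors' caller. From these the authors kept 1102 regions by their irreproducible discovery rate (IDR) threshold, which proved to be the 1102 pooled regions with the highest signal (79.4 to 429.9, median 102.4). Ranks below run from 1 for the highest signal within a list, and signal values are compared only within a list. An IDR summit lay in the gene body or the 5000 bp upstream of act-5, erm-1, eps-8, ifb-2, pept-1, nhx-2 and pgp-1, and of 8.17% of all protein-coding genes. The genes were listed with earlier results of these data known, so the count describes these genes and is not evidence about the group. With 1000 bp upstream in place of 5000 the count fell to 4 genes, since the regions of ifb-2, nhx-2 and pgp-1 lie farther out, and the share of all genes was then 4.22%.

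The 8 IDR summits gave 0.715 per 10 kb of the members' windows, beside 0.114 per 10 kb over the windows of all protein-coding genes. The members' windows were longer than usual, with a median of 9896 bp against 7027 bp. Candidates of any strength were present at all 9 genes, and at 82.2% of all protein-coding genes. In the pooled list there were 61 candidates, or 5.46 per 10 kb beside 3.20 over all windows. The median of the best pooled rank was 511 over the 9 genes and 7751 over the 16408 genes with any candidate. The IDR summits at the members were all of the usual 370 bp width, with the summit at the middle, so its position is no finer than the caller's placement of the region.

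**Figure D2:**
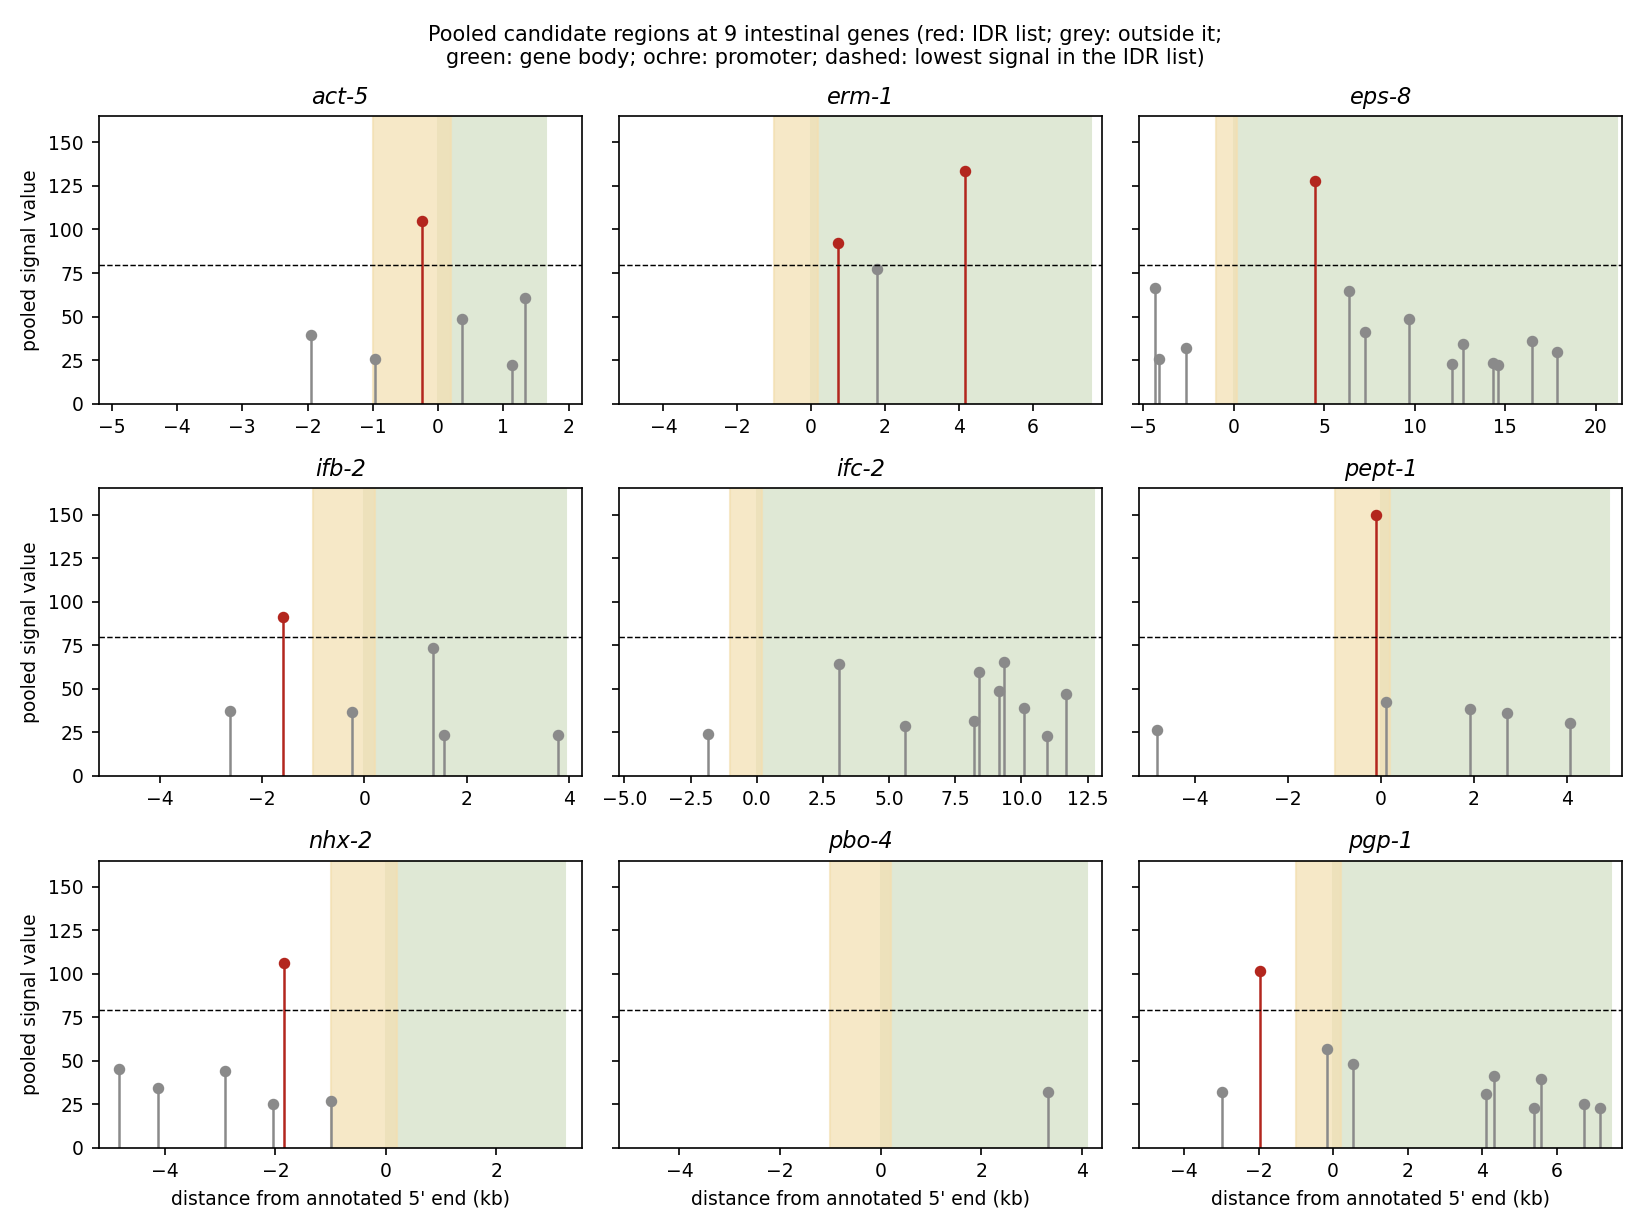
Pooled candidate regions at the 9 genes. The horizontal axis is the distance of the summit from the annotated 5' end in kb along the gene, the vertical axis the pooled signal value; red stems are IDR regions, grey stems other candidates, green the gene body, ochre the promoter and the dashed line the lowest signal in the IDR list, 79.4. The red stems of act-5 and pept-1 stand in the promoter, those of ifb-2, nhx-2 and pgp-1 lie farther upstream, and those of erm-1 and eps-8 lie inside the gene.

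Among the genes of the microvillus core, act-5 had 1 IDR region, in its promoter. This gene, on III at 13604412 to 13606066 on the minus strand, encodes the actin of the intestinal microvilli. The region spanned 13606126 to 13606495 with its summit 245 bp upstream of the 5' end. Its signal was 104.6 in the pooled list (rank 511), 47.4 in replicate 1 (rank 451) and 61.6 in replicate 2 (rank 586). Both replicates placed it among their own 1102 strongest. The other 5 candidates at act-5 had pooled signals from 22.4 to 60.5, and the strongest of them lay in the second intron, 1337 bp into the gene, where the ranks were 11816 in replicate 1 and 1450 in replicate 2. The promoter, taken as the 1000 bp before the 5' end and the first 200 bp of the gene, held an IDR summit in 2 of the 9 genes, act-5 and pept-1, and in 2.59% of all genes. With promoters of 2000 bp upstream to 500 bp downstream the count was 5 of 9, beside 3.90% of all genes.

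An IDR region also lay inside eps-8, the gene of an actin-capping and bundling protein needed for normal microvilli. The gene is long, at IV 14879484 to 14900653 on the plus strand, and has 12 annotated transcripts. Its IDR region, at 14883794 to 14884163, had its summit 4495 bp into the gene, in the first of the 16 introns of the longest transcript. The nearest start of any eps-8 transcript was that of Y57G11C.24a, 1709 bp farther downstream. The signal was 127.6 in the pooled list (rank 254), 36.5 in replicate 1 (rank 1167) and 89.0 in replicate 2 (rank 164). Replicate 2 ranked the region far higher than replicate 1, where it fell just outside the 1102 strongest. The region also holds the piRNA gene 21ur-9115. Of the 12 further candidates at eps-8, the strongest was at -4349 bp, with a pooled signal of 66.4 and ranks of 5434 and 935 in replicates 1 and 2. A candidate 163 bp downstream of the start of Y57G11C.24a had a signal of 64.6 (rank 2003).

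The erm-1 gene, which encodes the ERM protein linking the actin cytoskeleton to the apical membrane, was the one member with 2 IDR regions. It lies on I at 5284026 to 5291604 on the minus strand. The stronger region, at 5287255 to 5287624, was in the sixth of 10 introns, 4164 bp into the gene. Its signal was 133.5 in the pooled list (rank 214), 47.0 in replicate 1 (rank 466) and 76.9 in replicate 2 (rank 277). The 2 replicates placed its summit within 8 bp of the pooled position. By 1 annotated 5' end per gene this summit was nearer to the neighbour dnj-4, which it preceded by 3496 bp, than to erm-1. The start of the shorter erm-1 transcript, C01G8.5b, was nearer than either, 3254 bp from the summit.

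The second erm-1 region, at 5290689 to 5291058, was in the first intron, 730 bp from the 5' end of the longer transcript. It lay 180 bp upstream of the start of the shorter transcript, C01G8.5b, and so in a promoter when every annotated transcript start is counted, a choice made after seeing the data. Counted in that way 3 members had a promoter summit, beside 3.02% of all genes. The signal was 92.5 in the pooled list (rank 733), 33.9 in replicate 1 (rank 1478) and 58.9 in replicate 2 (rank 691). Again replicate 2 ranked the region higher. Another candidate, in the third intron with its summit 1786 bp from the 5' end, had a pooled signal of 77.2 and rank 1195, just below the lowest IDR signal. It shared the highest q value of the pooled list with the IDR regions and was the one candidate at the 9 genes to do so from outside the IDR list. The 5000 bp upstream of erm-1 held no pooled candidate.

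The endotube genes differed from each other. The ifb-2 gene, at II 5750188 to 5754140 on the plus strand, encodes an intermediate filament protein of the endotube. Its IDR region, at 5748414 to 5748783, was intergenic, with the summit 1589 bp upstream. The signal was 91.1 in the pooled list (rank 765), 41.6 in replicate 1 (rank 733) and 43.1 in replicate 2 (rank 1745). This was the weakest of the 8 regions in the pooled list and the one that replicate 2 left outside its 1102 strongest. In the second intron, 1351 bp into the gene, a candidate with a pooled signal of 73.3 (rank 1401) had nearly the same signal in replicate 2, 43.1 (rank 1746), and a lower rank in replicate 1, 4133. In the promoter itself the candidate at -237 bp had a signal of 36.6 (rank 10373).

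No IDR region was found at ifc-2, which encodes another intermediate filament protein of the endotube and lies at X 642156 to 654904 on the minus strand. It had 10 pooled candidates, with signals from 22.9 to 65.1. The strongest, at 645363 to 645732 in coding sequence 9356 bp into the gene, had rank 1952 in the pooled list. The strongest overlapping region of replicate 1 had rank 2748, with its summit 5 bp away. That of replicate 2 had rank 2768, with its summit 205 bp away and nearer to the overlapping candidate of pooled rank 4612. A region at 646325 to 646694, also in coding sequence, had pooled rank 2481. Regions of rank 1952 in replicate 1 and 1858 in replicate 2 overlapped it, with summits 151 and 32 bp away. This replicate 1 summit was nearer to the overlapping candidate of pooled rank 14855. The candidates lay mostly in the gene's 3' part and differed little at the top: the strongest 2 had signals of 65.1 and 64.3, a ratio of 1.01. At pept-1 the same ratio was 3.56. None of the ifc-2 candidates fell in the promoter by the annotated 5' end of the gene. Several were close to starts of its shorter transcripts: the strongest lay 160 bp downstream of the start of M6.1f, and the candidates of ranks 4612, 2481 and 14855 lay 40, 786 and 988 bp upstream of the start of M6.1d. In neither replicate did a region of the 1102 strongest have its summit in the window.

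Among the transporter genes the strongest region of all 9 genes was at pept-1, the gene of the proton-coupled peptide transporter of the apical membrane. The gene lies at X 6456872 to 6461767 on the plus strand. The region, at 6456583 to 6456952, had its summit in the promoter, 104 bp upstream of the 5' end, and also holds the noncoding RNA gene K04E7.4. Its signal was 149.8 in the pooled list (rank 145), 61.1 in replicate 1 (rank 196) and 87.7 in replicate 2 (rank 174). Both replicates ranked it among their 200 strongest. It stood alone: the next candidate, in the 5' UTR 98 bp downstream of the 5' end, had a signal of 42.1, and the remaining 4 had 26.1 to 38.1. In replicate 1 alone there was a separate region at 87 bp downstream with signal 36.1 (rank 1208). Of all protein-coding genes, 1.25% had a better ranked candidate in their window.

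The region of nhx-2, the sodium proton exchanger gene of the apical membrane, lay farther upstream. The gene is at II 7690711 to 7693957 on the minus strand, and the region, at 7695624 to 7695993, was intergenic with its summit 1852 bp upstream. The signal was 106.1 in the pooled list (rank 487), 43.8 in replicate 1 (rank 614) and 61.5 in replicate 2 (rank 593). The ranks in the 2 replicates were close. The nearest 5' end was that of nhx-2, while the same summit also falls in the window of cdk-11.1. None of the 6 pooled candidates was inside the gene, and the other 5 had signals from 25.3 to 45.0. Each replicate had a region just upstream of the 5' end, at -164 bp in replicate 1 (rank 8641) and at -163 bp in replicate 2 (rank 3976), for which the pooled list held no candidate.

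At pgp-1, a gene of the P-glycoprotein family of ABC exporters that is expressed at the apical membrane of the intestine, the IDR region was 1965 bp upstream. The gene is at IV 12591704 to 12599169 on the minus strand, and the region spans 12600949 to 12601318. Its signal was 101.4 in the pooled list (rank 571), 43.5 in replicate 1 (rank 626) and 59.3 in replicate 2 (rank 672). The replicates ranked it alike, and replicate 1 placed the summit 39 bp from the pooled position, the largest shift among the 8 regions. The summit falls in the last exon of the upstream neighbour Y55D9A.2, in its 3' UTR, and the nearest 5' end is that of pgp-1. The promoter of pgp-1 held a weaker candidate at -171 bp with a signal of 56.8 (rank 2884), which had rank 2110 in replicate 2 and 13047 in replicate 1. A candidate in the first intron, at 545 bp, with a signal of 48.0 was matched in replicate 2 (rank 2335) but by no region of replicate 1.

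The lowest enrichment was at pbo-4, the gene of a sodium proton exchanger that releases protons towards the muscle in the defecation cycle. It lies at X 10954134 to 10958233 on the plus strand. Its protein is known from the basolateral side of the posterior intestine, so it is the one member that the word apical does not describe. The pooled list held 1 candidate, in an intron 3324 bp into the gene, with a signal of 32.3 (rank 14192). Replicate 2 had 1 region at the same place, with a signal of 30.0 (rank 5170), and replicate 1 had 3 regions elsewhere, the strongest at 1443 bp with a signal of 19.0 (rank 10411). Of all protein-coding genes, 60.1% had a better ranked candidate, where the same share was 13.8% for ifc-2 and from 1.25% to 5.91% for the other 7 genes. The pooled density at pbo-4 was 1.10 candidates per 10 kb, the lowest of the 9 genes, beside 2.38 at erm-1, the next, and 9.02 at act-5, the highest.

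**Figure D3:**
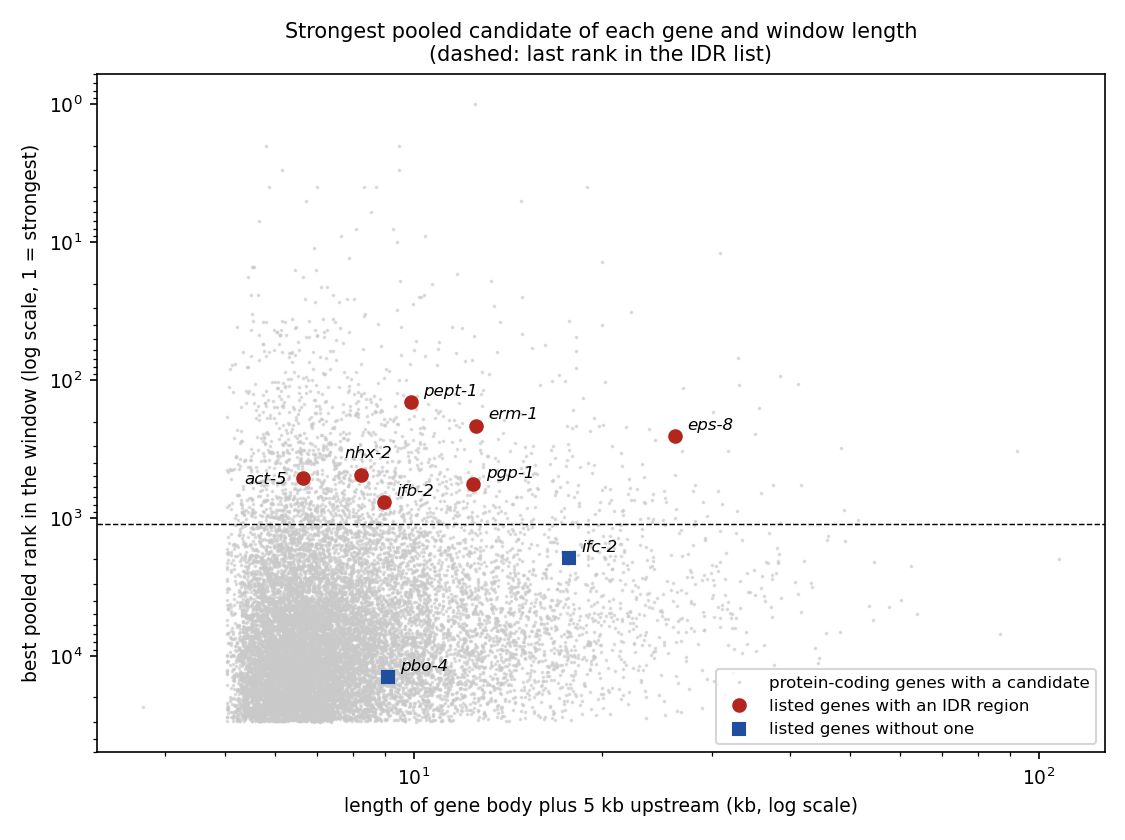
Strongest pooled candidate of each protein-coding gene against the length of its window (gene body plus 5 kb upstream), both on log scales with rank 1 at the top. Grey points are the 16408 genes with a candidate, red circles the 7 listed genes with an IDR region, blue squares ifc-2 and pbo-4, and the dashed line is the last rank in the IDR list; ifc-2 has the second longest window of the 9 genes and lies below the line, as does pbo-4.

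Placed beside each other, 2 of the 8 IDR summits were in promoters, 3 in introns of the member gene, 2 in intergenic sequence and 1 in an exon of a neighbour. Of all 1102 IDR summits, 39.5% were in promoters, 24.6% in introns, 26.95% in intergenic sequence and 8.98% in exons. The 3 regions upstream of ifb-2, nhx-2 and pgp-1 had their summits at similar distances from the 5' end, 376 bp apart at most, at -1589, -1852 and -1965 bp. Coding sequence of the members held 20 of the 61 pooled candidates and none of the 8 IDR summits. For 7 of the 8 the member's 5' end was the nearest of any protein-coding gene. Most of the summits also fell in the window of a neighbour. These were shpk-1 for act-5, F10C1.9 for ifb-2, nas-33 for pept-1, cdk-11.1 for nhx-2, Y55D9A.2 for pgp-1 and dnj-4 for the stronger erm-1 summit.

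The 2 replicates were then compared at the 8 regions. Each was present in both replicates' lists, with summits at most 39 bp from the pooled position. Within the 1102 strongest regions of a replicate were 6 of the 8 in replicate 1 and 7 in replicate 2, and 5 were in both. Over all 1102 IDR regions the shares were 66.97% in replicate 1, 80.5% in replicate 2 and 52.4% in both. The eps-8 region and the weaker erm-1 region fell outside in replicate 1, and the ifb-2 region in replicate 2. IDR regions are the strongest of the list pooled from the same reads, so a high rank in each replicate is partly fixed by that choice. Replicate 2's 1102 strongest regions gave 6 of the 9 genes with a summit, without ifb-2, and those of replicate 1 gave 6, without eps-8, beside 8.39% and 8.32% of all genes. How many reads underlie a list is unknown, and no signal can be given a counting error.

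**Figure D4:**
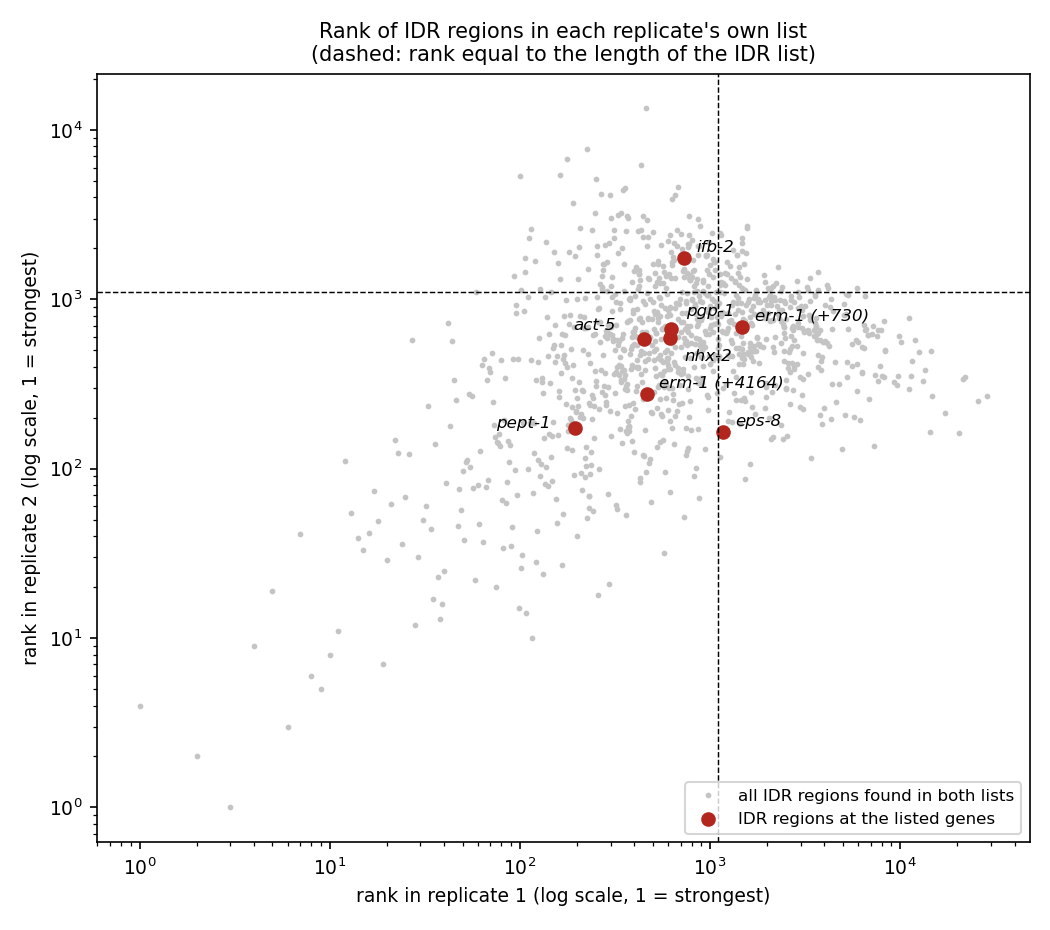
Rank of each IDR region in replicate 1 (horizontal) and replicate 2 (vertical), both on log scales with 1 the strongest; grey points are the IDR regions overlapped in both lists, red points the 8 at the listed genes, and dashed lines mark rank 1102. The red points of pept-1, act-5, nhx-2, pgp-1 and the stronger erm-1 region lie inside both lines, while eps-8, ifb-2 and the weaker erm-1 region each lie outside 1 of them.

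Genes with related roles were counted in 7 further lists, of which 66 of 68 symbols matched (not pgp-15 and fgt-1). An IDR summit lay in the window of 9 of the 66 (13.6%, beside the 8.17% of all genes) and in the promoter of 6 (9.09%, beside 2.59%). The windows of these lists were also longer than usual, with medians from 8746 to 10769 bp against 7027 bp. Like the members, these lists were chosen with earlier results of these data known, so the shares are a description only. Of 7 genes of other intestinal filament proteins and their organisers, 3 were positive, all in the promoter, in a list too short to set a share against that of all genes. These were ifd-1, a filament gene (X, -150 bp, signal 106.2, rank 770 in replicate 1 and 638 in replicate 2), ifo-1, whose product organises the intestinal filaments (IV, -321 bp, signal 80.6, ranks 938 and 1085), and bbln-1, a coiled-coil protein gene of the same structure (X, -852 bp, signal 85.6, ranks 1047 and 1655). The ifo-1 region also holds 2 noncoding RNA genes. The best pooled rank of ifd-1, 486, was above that of ifb-2, and ifc-1, ifd-2, ifp-1 and sma-5 had no IDR summit.

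The actin, polarity and proton signalling lists each held 1 or 2 genes with an IDR summit, in lists too short to set a share against the 8.17% of all genes. Of 8 actin and terminal web genes, spc-1, the alpha-spectrin gene, had a promoter summit (X, -736 bp, signal 93.8), and none was in the windows of act-1, act-2, act-3 or act-4, the other actin genes. Of 12 polarity and junction genes 2 were positive. The atypical protein kinase C gene pkc-3 had a promoter summit (II, -275 bp, signal 105.0) that replicate 1 ranked 137 and replicate 2 ranked 2176. The junction gene ajm-1 had 1 summit in an intron (X, 8627 bp into the gene, signal 145.7) and 1 at -4627 bp (signal 93.2), each in a region with a tRNA gene. Of 8 genes of proton signalling and the defecation cycle, aex-4, a SNAP-25 family gene of the intestine, had a promoter summit (X, -107 bp, signal 81.9).

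Genes of the members' own transporter families were counted next. None of the 7 other sodium proton exchanger genes and none of the 13 other P-glycoprotein genes had an IDR summit, where the share of 8.17% of all genes would itself give about 1 or none in lists of this length, so these counts are near the background. The best pooled ranks in the 2 families were 2100 and 2346. The median best pooled rank was 5742 in the first family and 12373 in the second, beside 7751 over all genes with a candidate. The members nhx-2, with 487, and pgp-1, with 571, were listed with earlier results of these data known. Of 11 further peptide and amino acid transporter genes 2 were positive. Among them aat-6 had a summit in an intron (V, 221 bp into the gene, signal 94.6), and the window of aat-3 held one at -2715 bp (X, signal 80.9) that lies in the promoter of smvt-1, beside a tRNA gene. Several P-glycoprotein genes are neighbours with similar sequence, and reads that match more than 1 copy can be placed uncertainly. Whether this touched any count here was not tested.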

How the data were processed

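Chromatin immunoprecipitation with sequencing was analysed from 2 biological replicates of 1 group, and the labels name the antibody target as ets-4 and, in the description, GFP. The 4 region lists were used as the authors deposited them, on ce11. Per the deposited text files, a replicate's list was derived from that library's alignments with a control, the pooled list used the alignments of both libraries, and the IDR list used all 3. The signal values are those of the authors' caller and share no scale across lists. The deposited -log10 q values reach 1 ceiling in each list, which 1393 pooled regions share. The aligner, caller and IDR threshold were not given in the sources used here, and the depth of either library is unknown.

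Genes came from Ensembl release 115 (WBcel235), sequences from the RefSeq copy of the assembly, within whose chromosome lengths all regions fell. Coordinates are 1-based. Trans-splicing is common in worms, so transcription may start upstream of an annotated 5' end. Overlap between lists was at least 1 bp. No test was made: the members and gene lists were chosen with earlier results of these data known. The sequence at the eps-8 summit and its word counts are not reported here, so word counts cover 7 of the 8 summits. All members were named, as was every gene of the 7 other lists with an IDR summit in its window. Python 3.11.15 with numpy 2.4.6, pandas 2.3.3 and matplotlib 3.10.9 was used, and the counting was tested on simulated summits.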

Additional observations from a re-analysis of the deposited data

How the results depend on the processing

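The number of listed genes with an IDR summit in the window was 7, and it was 7 with 2000 bp upstream, with 1 bp of overlap in place of the summit, with each summit given to the nearest 5' end, and with every pooled region at the highest q value. It was 5 among the 551 strongest IDR regions (without ifb-2 and pgp-1) and 4 with 1000 bp upstream. The number of summits, 8, became 5 under each of these last 2 settings and stayed between 7 and 9 under the other planned ones that used both replicates. With 1 replicate left out, the 1102 strongest regions of the other gave 6 genes in either case, and 6 to 9 summits. The share of all genes was 8.39% without replicate 1 and 8.32% without replicate 2. Promoter summits were found at 2 genes, beside 2.59% of all genes, and at 2 under most alternatives, beside 1.44% to 3.19%. The exceptions were the wider promoter of 2000 bp upstream to 500 bp downstream, with 5 (3.90%), and the starts of every transcript, with 3 (3.02%). The last of these was added after seeing the data. With either replicate left out the promoter count was 2. No paired analysis was possible because there was 1 group and no contrast. The unknown number of reads limits every statement on a candidate outside the IDR list: a low rank does not show that ETS-4 was absent.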

Other observations

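The GC content of the 101 bp around the summits ran over the 7 summits for which words are reported from 34.7% at pgp-1 to 48.5% at the weaker erm-1 region, with a median of 46.5% over all IDR summits. Its part in the word counts was not tested.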
